A study of Mus musculus with 12 samples.

Results

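The exonic and intronic RNA of mESCs was compared between newly transcribed and total RNA after 60 min of labeling. The comparison rested on every library of that labeling time, which is 4 of the 12 libraries of the series: 2 of labeled RNA and 2 of total RNA. The labels chose the libraries and no measured value was used. mESCs are cultured cells from the early embryo that can form every tissue of the body. They were exposed to 200 µM 4sU for 15, 30 or 60 min, and the labeled and the total RNA of each time were sequenced from 2 biological replicates. The cells were the Mouse DTCM23/49 XY ESC line, grown in serum with LIF on gelatin, and both replicates descended from 1 culture that was divided and passaged 8 times before labeling. p-values therefore measure the spread between libraries from cultures of 1 line, in which culture and library preparation cannot be told apart. All groups received 4sU, the total RNA included, so no library of untreated cells entered the comparison.

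4sU is a uridine analog that cells build into RNA while it is in the medium. RNA that carries it can be linked to biotin and pulled down with streptavidin, which separates RNA made during the labeling from older RNA. A transcript that is made and degraded quickly is therefore known to take a larger share of labeled than of total RNA, and a long-lived mRNA a smaller one. Introns are removed soon after transcription, so intronic sequence is known as a mark of RNA that has not yet been spliced.

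Each deposited value was a length-normalized abundance of an exonic or intronic sequence, and is called signal below. Exons and introns had been scaled together to the same total in every library, between 19988830 and 19992791, so a value was a share of a library and not an amount of RNA, and a larger share for some genes meant a smaller one for others. In bulk RNA, a change in the number of cells that make a transcript and a change in RNA per cell cannot be told apart. Values of 1 or less were missing in the table. Signal was summed per gene over the transcripts found in GENCODE M1, which are 83847 of 111672 Ensembl transcripts. Of 34079 genes with exonic rows and 23308 with intronic rows, 13977 and 9117 had a mean of at least 20 over the 12 libraries and were tested, so a low gene could pass through the libraries in which it was high. Differences are log2(signal + 1) in labeled minus total RNA with their SE, which understate the change of low genes. The limma test with Benjamini-Hochberg adjustment took its spread from all 12 libraries.

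Labeled library 1 stood apart from the other 3 libraries in its intronic share. Introns held 13.9% of its signal, against 6.99% in labeled library 2 and 7.29% and 6.65% in total libraries 1 and 2. Mean intronic shares were 10.4% ± 4.90 (SD, n = 2) in labeled and 6.97% ± 0.452 (SD, n = 2) in total RNA, a difference of 3.48 percentage points (two-sided exact permutation p = 0.667, where the smallest p that 2 against 2 allows is 0.33). Without labeled library 1 the difference was 0.012 points, and without labeled library 2 it was 6.94. Over 13977 genes, the exonic log2 values of the 2 labeled libraries correlated at r = 0.879, below every correlation between a labeled and a total library (0.901 to 0.925) and below that between the total libraries (0.931). Over 9117 genes with intronic values, the labeled libraries correlated at 0.779, labeled library 1 with the total libraries at 0.876 and 0.918, and labeled library 2 at 0.869 and 0.832, against 0.939 between the total libraries. By this measure labeled library 2 was the less like total RNA. These correlations are across genes, which are not independent replicates, and share the scale of each library.

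The markers of the labeled cell type were present. All 10 mESC markers were measured in all 4 libraries, with a summed exonic signal of 29668 and 27060 in total libraries 1 and 2 and 20907 and 34552 in labeled libraries 1 and 2. Of 8 fibroblast markers, the collagen genes Col1a2 and Col3a1 and also Postn, Lum and Dcn were listed at 0 in all 4 libraries, and the whole list summed to between 31.4 and 55.5. The trophectoderm gene Cdx2, the endoderm gene Foxa2, the neural gene Neurog2 and the mesoderm genes Mesp1, Kdr and Hand2 were also listed at 0. The sums of the trophectoderm list (5 of 6 members with rows) were 15.7 and 22.7 in total and 32.7 and 30.7 in labeled RNA, and those of the mesoderm list (6 of 6) lay between 1.0 and 10.3. The neural list (4 of 6) summed to 212.2 and 333.7 in total and 272.1 and 392.9 in labeled RNA, and its members Tubb3, Nes and Pax6 passed the filter. Tubb3 had 163.5 and 288.8 in total and 228.5 and 177.1 in labeled RNA. Nes had 32.6 and 23.3 in total and 34.5 and 36.6 in labeled RNA. Pax6 had 16.1 and 21.6 in total and 9.05 and 179.2 in labeled RNA. The primitive endoderm list (6 of 6) summed to 4021 and 5939 in total and 3882 and 3503 in labeled RNA. Nearly all of this was Sparc. Dab2 also passed the filter, with 17.8 and 61.6 in total and 49.6 and 24.6 in labeled RNA, while Gata6 and Sox17 did not exceed 1.08.

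Across exons, both labeled libraries lay above both total libraries for 3 of 4 snoRNA host genes, 54 of 143 lincRNAs and 5 of 16 immediate early genes tested, against 11.7% of all genes. They lay below for 10 of 17 actin and tubulin genes and 13 of 27 regulators of mRNA decay, against 21.4% of all genes. With all libraries set to equal medians, only 5 of the actin and tubulin genes lay below, where 22.0% of all genes did. No gene passed the test and the lists were not tested against other genes. limma called 0 of 13977 genes, or 0.0%, at an adjusted p of 0.05. The smallest adjusted p was 0.146, and 1660 genes had an unadjusted p under 0.05, 455 higher and 1205 lower in labeled RNA. Without labeled library 1, limma called 520 genes, 87 higher and 433 lower, with labeled library 2 as the only labeled library of 60 min and its spread taken from the other groups. With the 4 libraries fitted alone it called 6.

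Genes are therefore described by whether both labeled libraries lay outside both total libraries. Both lay above for 1632 genes (11.7%) and both lay below for 2985 (21.4%), and the other 9360 overlapped. The median gene differed by -0.08, by 0.05 in labeled library 1 and by -0.25 in labeled library 2, each against the mean of the total libraries. With all libraries set to equal medians, 15.4% of the genes lay above and 22.0% below. Taken alone, labeled library 1 lay above both total libraries for 39.2% of the genes and below for 32.3%, while labeled library 2 lay above for 23.8% and below for 53.4%.

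**Figure D1:**
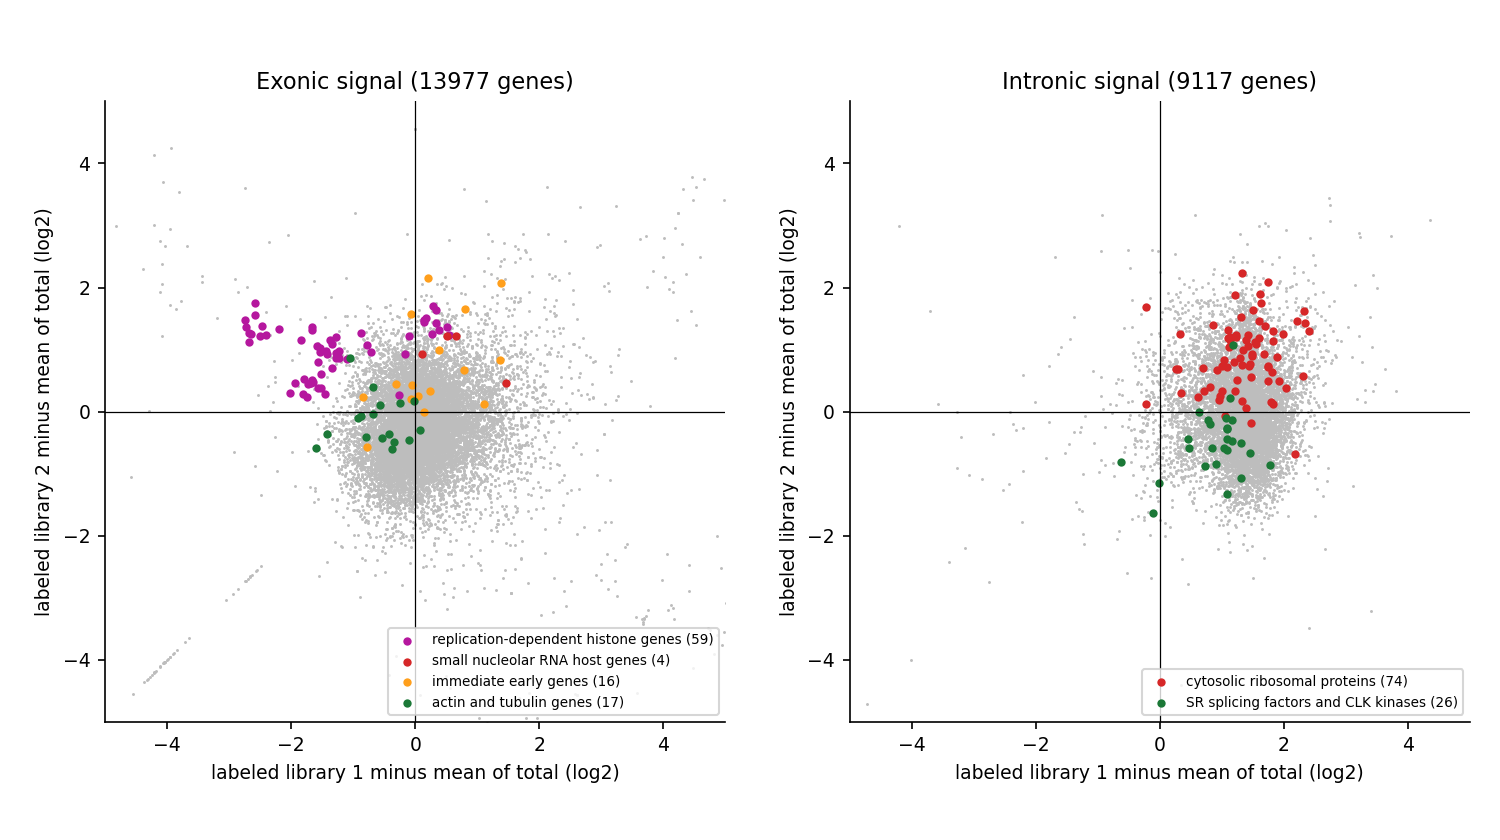
Log2 signal of each gene in labeled library 1 (x axis) and labeled library 2 (y axis), each minus the mean of the 2 total libraries, for exons (left) and introns (right). Grey points are all genes tested, colored points are members of gene lists, and points beyond 5 in either direction are not shown. Histone genes lie low in labeled library 1 and high in labeled library 2, and the introns of ribosomal protein genes lie high in both.

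The 8 largest exonic differences upward among genes with non-overlapping groups and a mean of at least 200 belonged to small RNAs, pseudogenes and Neat1, and none was called. SNORD74 (chr1:162965525-162965604, plus strand, mm9) was listed at 0 in both total libraries and at 569.5 and 238.9 in labeled libraries 1 and 2. SNORD79 (chr1:162967487-162967570, plus strand) was listed at 0 in total library 1 and had 376.9 in total library 2, 1428 in labeled library 1 and 806.3 in labeled library 2. Both are snoRNAs, which guide chemical modification of rRNA, and both lie inside Gas5, whose annotated exonic sequence holds all of their bases, so reads of the host and of the snoRNA share positions. AC167132.1, annotated as a miRNA inside Mau2, was also listed at 0 in both total libraries, with 735.0 and 125.0 in the labeled ones. A value of 0 here means missing or at most 1, and no fold is given against it.

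Of the 4 pseudogenes among these 8 genes, 2 are copies of mitochondrial genes that lie side by side on chromosome 4. Gm11407 (chr4:79648235-79649292, plus strand, mm9) was 92.3% identical over its whole 1058 nt to mt-Nd5, which encodes a subunit of respiratory complex I. Its signal was 17956 and 10735 in total and 35741 and 70250.1 in labeled RNA, a difference of 1.85 (SE 0.32, adjusted p = 0.146 with limma). Gm11408 (chr4:79649300-79649818, minus strand) was 93.6% identical over its whole 519 nt to mt-Nd6, a further subunit of that complex, and had 8089 and 2299 in total and 9507 and 45591 in labeled RNA (2.27, SE 0.72, limma adjusted p = 0.288). The labeled libraries of Gm11408 overlapped the total ones at equal medians. Copies this alike can share reads with their source, so the locus is uncertain, and the 13 mitochondrial mRNAs themselves were not analysed here.

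Gm17132, a pseudogene inside Tmem132d, had 184.3 and 140.8 in total and 580.6 and 890.4 in labeled RNA (2.15, SE 0.34, limma adjusted p = 0.146). It was 88.6% identical to A830010M20Rik, whose own values overlapped between the groups, with 163.8 and 225.4 in total and 323.2 and 208.8 in labeled RNA. Gm11966, of 87 nt, was identical to part of Atp5j and had 164.9 and 285.5 in total and 773.7 and 831.2 in labeled RNA (1.88, SE 2.08, limma adjusted p = 0.761). The 4 pseudogenes were picked among genes whose groups did not overlap, so that both labeled libraries lay above both total ones followed from the choice. Which copy each value came from is uncertain.

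The 8 largest differences downward held 3 genes annotated as miRNAs, 4 pseudogenes and 1 protein-coding gene. AC122372.1 was listed at 0 in labeled library 1 and had 235.8 in labeled library 2, against 369.7 and 888.4 in total RNA. AC164156.1 was likewise at 0 in labeled library 1, with 286.8 in labeled library 2 and 557.9 and 524.0 in total RNA. AC115005.1, with 428.5 and 409.4 in total and 108.9 and 180.8 in labeled RNA (-1.57, SE 0.47, limma adjusted p = 0.274), had 5 copies in the annotation. The pseudogenes Gm15175, Gm14287, Gm4462 and Gm14897 differed by -1.75, -1.68, -1.64 and -1.60 and resemble Ppat, Gm17510, Eef1g and Yme1l1. Gm15175 had 273 and 380 in total and 168 and 53.7 in labeled RNA. Gm14287 had 506 and 761 in total and 273 and 136 in labeled RNA. Gm4462 had 826 and 1798 in total and 777 and 196 in labeled RNA, so labeled library 1 was close to total library 1. Gm14897 had 385 and 512 in total and 253 and 84.1 in labeled RNA. The protein-coding gene was March6, a ubiquitin ligase of the endoplasmic reticulum, with 254.8 and 272.3 in total and 144.8 and 50.3 in labeled RNA (-1.61, SE 0.40, limma adjusted p = 0.248).

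Immediate early genes, which are switched on within minutes of a stimulus and whose mRNAs are short-lived, mostly overlapped between the groups. Of 30 listed, 14 fell below the filter on low signal. Of the 16 tested, 5 lay above both total libraries in both labeled libraries (11.7% of all genes did), 1 lay below (21.4%) and 10 overlapped, with a median difference of 0.45, against -0.08 over all genes. At equal medians 6 lay above and 1 below. Among the 16, 4 had an unadjusted limma p under 0.05, all higher, and 0 passed adjustment over all genes.

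Ier2, an immediate early transcriptional regulator, showed the largest difference of the list. It had 16.5 and 19.4 in total and 48.2 and 78.6 in labeled RNA (1.73, SE 0.43, limma adjusted p = 0.248), so it was low in total RNA and near the filter there. Dusp1, a phosphatase that switches off MAP kinases, had 354.4 and 509.0 in total and 743.3 and 1338 in labeled RNA (1.23, SE 0.38, limma adjusted p = 0.278). Egr1, a zinc finger transcription factor induced by ERK signaling, had 216.4 and 287.4 in total and 432.4 and 395.4 in labeled RNA (0.73, SE 0.23, limma adjusted p = 0.279). Btg2, an antiproliferative gene that recruits deadenylases, had 14.8 and 17.3 in total and 43.0 and 29.3 in labeled RNA (1.10, SE 0.36, limma adjusted p = 0.293). In these genes each labeled library exceeded each total library, although which labeled library was higher differed from gene to gene. The exception in direction was Srf, the transcription factor that itself drives many immediate early genes, with 28.8 and 27.9 in total and 16.2 and 18.7 in labeled RNA (-0.67, SE 0.37, limma adjusted p = 0.523). Ier3, a stress response gene, overlapped between the groups with 22.0 and 15.5 in total and 21.4 and 85.3 in labeled RNA. Dusp1 was chosen for the text after its values were seen.

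Promoters of immediate early genes are known to carry cAMP response elements, here the letters TGACGTCA, which read the same on both strands, and serum response elements, here the CArG box, searched on both strands. Within the 250 bases before the annotated starts (RefSeq, GRCm38.p6), TGACGTCA stood in 3 of the 22 immediate early genes with a window (13.6%) and in 478 of all 27025 genes (1.77%). The CArG box stood in 4 of the 22 (18.2%) and in 439 of all genes (1.62%). The windows below belong to 3 genes above and 1 gene below total RNA in both labeled libraries, chosen after their values were seen. They are shown because both directions occurred among genes with 1 or the other element. Gas5 belongs to the snoRNA host genes, where TGACGTCA stood in 2 of 15 genes with a window (13.3%) and the CArG box in 0. Positions are on GRCm38.p6, unlike the mm9 positions above, at chr1:134079156-134079405 (minus strand) for Btg2, chr17:26508473-26508722 (minus) for Dusp1, chr1:161034916-161035165 (plus, 1 of 2 annotated starts) for Gas5 and chr17:46556163-46556412 (minus) for Srf. Capitals mark TGACGTCA in the first 3 and the CArG boxes in Srf.
Btg2: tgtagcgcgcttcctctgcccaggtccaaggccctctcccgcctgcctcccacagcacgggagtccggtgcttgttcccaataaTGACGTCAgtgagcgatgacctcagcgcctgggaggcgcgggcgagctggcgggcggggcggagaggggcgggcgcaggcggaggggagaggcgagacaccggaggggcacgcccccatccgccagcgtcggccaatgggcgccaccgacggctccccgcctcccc
Dusp1: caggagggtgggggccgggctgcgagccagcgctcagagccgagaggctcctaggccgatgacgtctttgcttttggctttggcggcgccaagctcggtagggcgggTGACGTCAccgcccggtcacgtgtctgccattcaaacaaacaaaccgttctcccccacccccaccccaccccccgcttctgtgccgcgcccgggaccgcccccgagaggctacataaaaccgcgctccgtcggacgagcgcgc
Gas5: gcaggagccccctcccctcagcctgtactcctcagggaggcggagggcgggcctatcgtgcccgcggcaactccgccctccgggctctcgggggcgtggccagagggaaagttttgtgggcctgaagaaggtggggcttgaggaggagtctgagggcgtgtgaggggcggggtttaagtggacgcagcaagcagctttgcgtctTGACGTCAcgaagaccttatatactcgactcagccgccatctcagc
Srf: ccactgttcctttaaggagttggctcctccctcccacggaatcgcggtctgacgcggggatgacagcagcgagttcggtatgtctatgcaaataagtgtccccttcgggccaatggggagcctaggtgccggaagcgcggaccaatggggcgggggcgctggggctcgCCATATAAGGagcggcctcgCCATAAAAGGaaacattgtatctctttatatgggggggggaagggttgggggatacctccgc
The element began 166 bases before the start in Btg2, 143 before in Dusp1 and 46 before in Gas5, while the first CArG box of Srf began 82 before. Maff, with TGACGTCA, and Zfp36, with a CArG box, overlapped between the groups. Tested genes with TGACGTCA thus lay above or overlapped, and those with a CArG box lay below or overlapped. These are too few genes to read a direction from either element. A match is a description of these letters and not a bound site.

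Signaling genes split in direction, in shares near those of all genes (11.7% above and 21.4% below). Of 12 FGF and ERK feedback genes tested, 2 lay above and 2 below both total libraries, with a median of -0.15. Fgf4, the growth factor that drives ERK signaling in mESCs, had 350.1 and 346.9 in total and 485.9 and 513.1 in labeled RNA (0.52, SE 0.24, limma adjusted p = 0.442, chosen after its values were seen). Etv5, a transcription factor induced by FGF, had 975.0 and 943.1 in total and 496.1 and 690.3 in labeled RNA (-0.71, SE 0.24, limma adjusted p = 0.304). The ligand and this downstream factor thus lay on opposite sides of total RNA. Of 12 tested Id, Lefty and other signal targets, 2 lay above and 2 below, with a median of 0.22. Socs3, the feedback inhibitor of LIF signaling, was the highest, with 56.7 and 65.5 in total and 82.0 and 186.0 in labeled RNA (1.01, SE 0.45, limma adjusted p = 0.423). Among 23 tested p53 pathway genes, 4 lay above and 6 below, with a median of 0.01. Trp53 itself lay below with 7419 and 9404 in total and 5449 and 4602 in labeled RNA (-0.74, SE 0.22, limma adjusted p = 0.276, chosen after its values were seen), whereas Btg2 was the highest of the list. Several genes stand in more than 1 list, among them Egr1, Btg2 and Ccng2, so the lists are not separate evidence.

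Most snoRNA host genes could not be measured here. The spliced RNA of many hosts, from which the snoRNAs have been cut out, is known to be degraded quickly. Of 18 hosts listed, 13 had no matched row and 4 were tested, of which 3 lay above both total libraries (11.7% of all genes did) and 0 below, with a median of 0.90. Gas5 had 35530.3 and 32695 in total and 53925 and 79472 in labeled RNA (0.94, SE 0.20, limma adjusted p = 0.230). Snhg12 had 2245 and 2149 in total and 3116 and 5088 in labeled RNA (0.86, SE 0.30, limma adjusted p = 0.316), and Snhg11 had 92.5 and 127.4 in total and 299.4 and 149.3 in labeled RNA (0.96, SE 0.40, limma adjusted p = 0.398). Labeled library 2 was the higher of the labeled pair for Gas5 and Snhg12, and labeled library 1 for Snhg11. Snhg3 overlapped, with 3515 and 1691 in total and 2630 and 4644 in labeled RNA.

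Summed over the tested snoRNAs of each host, signal was highest in labeled library 1, but single snoRNAs differed. Summed over the 7 tested snoRNAs of Gas5, signal was 1392 and 1459 in total RNA, 10018 in labeled library 1 and 2230 in labeled library 2, and 2 of the 7 lay above both total libraries in both. SNORD77 alone had 660.4 and 802.8 in total, 6972 in labeled library 1 and 92.2 in labeled library 2. SNORD78, Snord47 and SNORD81 of Gas5 went the other way. They were listed at 0 in labeled library 1 and had 594.0, 290.8 and 148.2 in labeled library 2. Of the 3 tested snoRNAs of Snhg1, SNORD27 and SNORD28 were listed at 0 in all 4 libraries. Only Snord22 had signal, with 577.4 and 1132 in total and 3341 and 975.7 in labeled RNA. Over all 228 snoRNAs tested, 43 lay above both total libraries and 4 below (11.7% and 21.4% of all genes did), with a median of 1.18 in labeled library 1 and 0.00 in labeled library 2. Such short genes can be missing in single libraries, and SNORD77 and the Gas5 set were chosen after their values were seen.

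Among 143 lincRNAs tested, 54 lay above both total libraries and 5 below, or 63 and 5 at equal medians, against 11.7% above and 21.4% below over all genes. Their median was 0.79 in labeled library 1 and 0.11 in labeled library 2, and 24 were higher and 1 lower at an unadjusted limma p under 0.05. Of 6 nuclear long noncoding RNAs tested of 19 listed, 3 lay above and 0 below, with a median of 0.52. Neat1, the RNA around which paraspeckles form, had 82.8 and 140.2 in total and 463.8 and 227.6 in labeled RNA (1.58, SE 0.44, limma adjusted p = 0.260). Malat1, a nuclear speckle RNA, overlapped between the groups, with 59829 and 29075 in total and 49027 and 55567 in labeled RNA. Total library 1 thus had the highest Malat1 value and total library 2 the lowest.

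Pluripotency transcription factors did not stand out once libraries were set to equal medians. Of 21 tested of 23 listed, 1 lay above and 9 below both total libraries (21.4% of all genes lay below), but at equal medians 1 lay above and 4 below, where 22.0% of all genes lay below. Their median was -0.24, with -0.31 in labeled library 1 and -0.19 in labeled library 2, and 0 were higher and 3 lower at an unadjusted limma p under 0.05. Utf1, a chromatin protein of pluripotent cells, had 3534 and 3811 in total and 1682 and 2213 in labeled RNA (-0.93, SE 0.22, limma adjusted p = 0.230). Pou5f1, which encodes Oct4, had 1674 and 1529 in total and 1158 and 1193 in labeled RNA (-0.44, SE 0.18, limma adjusted p = 0.385) and overlapped at equal medians. Lin28a, an RNA-binding protein that blocks let-7 and one of the mESC markers, had 1068 and 757.3 in total and 294.2 and 381.7 in labeled RNA (-1.42, SE 0.23, limma adjusted p = 0.146).

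Other core factors could not be placed. Nanog had 7404 and 3973 in total and 2941 and 6522 in labeled RNA, so the spread within each group exceeded the difference between them. Sox2 had 278.7 and 309.0 in total and 289.3 and 589.0 in labeled RNA, with only labeled library 2 above the total range. Myc had 170.8 and 157.7 in total and 90.7 and 192.4 in labeled RNA. Klf2, a Krüppel-like factor, was the one member above, with 100.7 and 146.3 in total and 173.5 and 232.0 in labeled RNA (0.72, SE 0.43, limma adjusted p = 0.554).

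Regulators of AU-rich elements and of deadenylation, which control how long an mRNA lasts, lay below both total libraries in both labeled libraries for 13 of the 27 listed, all of which were tested, against 21.4% of all genes. 4 lay above, and the counts were 4 above and 11 below at equal medians, where 15.4% and 22.0% of all genes did. The median was -0.44, with -0.31 and -0.44 in labeled libraries 1 and 2, and 1 was higher and 8 lower at an unadjusted limma p under 0.05. Pabpc1, the main cytoplasmic poly(A)-binding protein, had 36178 and 43855 in total and 22321 and 22729 in labeled RNA (-0.82, SE 0.18, limma adjusted p = 0.230). Pan3, a subunit of a deadenylase, had 75.4 and 99.0 in total and 53.6 and 33.3 in labeled RNA (-1.02, SE 0.28, limma adjusted p = 0.260). Ptbp1, a splicing repressor, had 10180 and 11780 in total and 5799 and 6099 in labeled RNA (-0.88, SE 0.25, limma adjusted p = 0.272). The members above were Btg2, Zfp36l2, Cnot10 and Tob1. Pabpc1 and Ptbp1 were chosen after their values were seen.

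Of 17 actin and tubulin genes tested, 0 lay above and 10 below both total libraries (21.4% of all genes lay below), with a median of -0.39. At equal medians only 5 lay below, near the 22.0% of all genes. Actb had 14846 and 11492 in total and 4295 and 8674 in labeled RNA (-1.10, SE 0.30, limma adjusted p = 0.260). Tubb5, a beta-tubulin, had 3878 and 4702 in total and 3175 and 3338 in labeled RNA (-0.39, SE 0.22, limma adjusted p = 0.528, chosen after its values were seen). Of 19 glycolysis enzymes tested, 1 lay above and 7 below, or 36.8% below, and 0 and 10 at equal medians (22.0% of all genes below), with a median of -0.40 and 6 lower at an unadjusted limma p under 0.05. Gapdh had 110806 and 112501 in total and 77342 and 74403 in labeled RNA (-0.56, SE 0.13, limma adjusted p = 0.230). Pgam1, phosphoglycerate mutase, had 2370 and 2646 in total and 1572 and 959.4 in labeled RNA (-1.03, SE 0.25, limma adjusted p = 0.247). For Gapdh the labeled values differed from each other far less than from total RNA. Of 26 heat shock proteins and chaperones tested, 2 lay above and 12 below, or 46.2% below, and 0 and 10 at equal medians, with a median of -0.32. Hspa4, a chaperone of the Hsp110 family, had 23655 and 18824 in total and 13924 and 14587 in labeled RNA (-0.57, SE 0.16, limma adjusted p = 0.260).

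Ribosomal protein and respiratory chain mRNAs had medians closer to 0 than these lists. Of 77 ribosomal protein genes tested, 14 lay above (18.2%, against 11.7% of all genes) and 7 below (9.09%, against 21.4%) both total libraries, with a median of 0.15, and -0.02 and 0.30 in labeled libraries 1 and 2. Rps27a was the highest, with 11944 and 10990.4 in total and 14466 and 28198 in labeled RNA (0.82, SE 0.26, limma adjusted p = 0.291), and Rpl28 the lowest, with 5841 and 5081 in total and 2709 and 4821 in labeled RNA (-0.59, SE 0.25, limma adjusted p = 0.402). Of 74 nuclear-encoded respiratory chain subunits, 13 lay above (17.6%) and 5 below (6.76%), with a median of 0.08. At equal medians 10 of the 77 ribosomal protein genes lay above and 4 below. Of the 74 respiratory chain subunits, 9 lay above and 7 below at equal medians. There 15.4% of all genes lay above and 22.0% below, so the share above exceeded that of all genes in neither list. Proteasome subunits, cyclins and SR splicing factors had shares below near that of all genes on the deposited scale. At equal medians 0 of the 31 proteasome subunits lay above and 9 below. The counts there were 2 and 4 of the 18 cyclins and 4 and 8 of the 26 SR splicing factors and CLK kinases. Of 31 proteasome subunits, 1 lay above and 7 below (22.6%), with a median of -0.13. Psmd1, a subunit of the regulatory particle, was the lowest of them, with 5417 and 7017 in total and 4960 and 2351 in labeled RNA (-0.85, SE 0.31, limma adjusted p = 0.332). Of 18 cyclins tested, 1 lay above and 4 below (22.2%), with a median of -0.22. Ccni had 2154 and 2236 in total and 1038 and 883.1 in labeled RNA (-1.20, SE 0.20, limma adjusted p = 0.146), while Ccng2, which inhibits cell cycle progression, had 63.2 and 81.4 in total and 112.2 and 109.6 in labeled RNA (0.62, SE 0.30, limma adjusted p = 0.452). Of 26 SR splicing factors and CLK kinases tested, 2 lay above and 7 below (26.9%), with a median of -0.22. The 2 above were the kinases Clk2 and Clk3, which phosphorylate SR proteins. Clk2 had 940.8 and 1246 in total and 1372 and 1731 in labeled RNA (0.51, SE 0.21, limma adjusted p = 0.385), and Srsf9, an SR protein, had 571.6 and 556.1 in total and 244.4 and 494.5 in labeled RNA (-0.70, SE 0.29, limma adjusted p = 0.388), overlapping at equal medians.

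**Figure D2:**
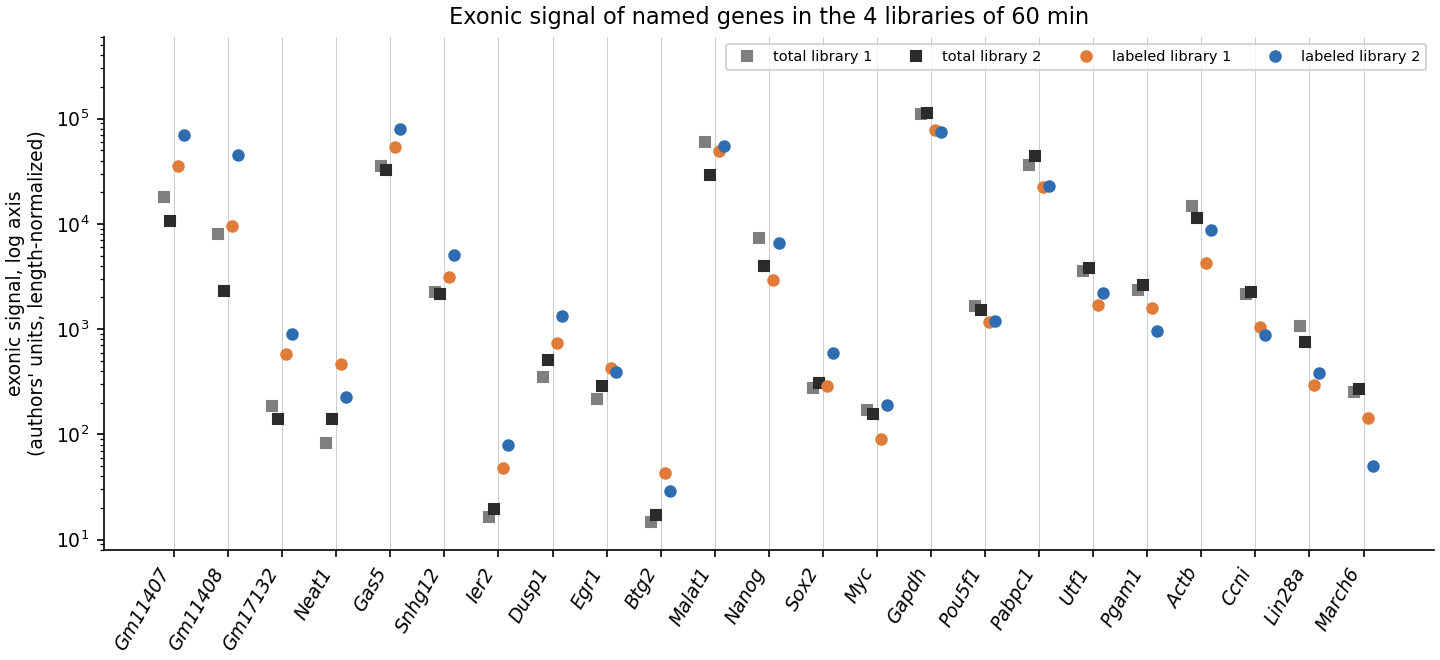
Exonic signal of named genes in the 4 libraries on a log axis, with squares for the total and circles for the labeled libraries and no error bars, since every library is drawn. Gas5, Ier2, Dusp1 and Egr1 have both circles above both squares, Gapdh and Pabpc1 have both below, and Nanog, Sox2, Myc and Malat1 overlap.

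Histone and 7SK genes were high in total library 1 and labeled library 2 and low in the other two libraries, and so did not separate labeled from total RNA. Replication-dependent histone mRNAs end in a stem-loop in place of a poly(A) tail and are made in S phase. Their signal, summed over the list, was 85603 in total library 1, 28328 in total library 2, 17056 in labeled library 1 and 84623 in labeled library 2. Of 59 tested, 47 lay below both total libraries in labeled library 1, where 32.3% of all genes did. In labeled library 2, 37 lay above both, where 23.8% of all genes did, and 0 lay on the same side in both labeled libraries. The median was -1.51 in labeled library 1 and 1.08 in labeled library 2. Hist1h2bm, an H2B gene, showed this with 1823 and 734.9 in total and 283.8 and 1418 in labeled RNA. Copies of 7SK, a nuclear RNA that holds P-TEFb inactive, were grouped after their values were seen. The list summed to 19139.5 in total library 1, 1528 in total library 2, 1677 in labeled library 1 and 6071 in labeled library 2, and 0 of 18 tested lay above or below in both. Lars2, a mitochondrial leucyl-tRNA synthetase also chosen after its values were seen, went with the same libraries, with 23177 and 2755 in total and 472.9 and 18668 in labeled RNA. In each of the 3 cases total library 1 and labeled library 2 had more signal than total library 2 and labeled library 1.

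**Figure D3:**
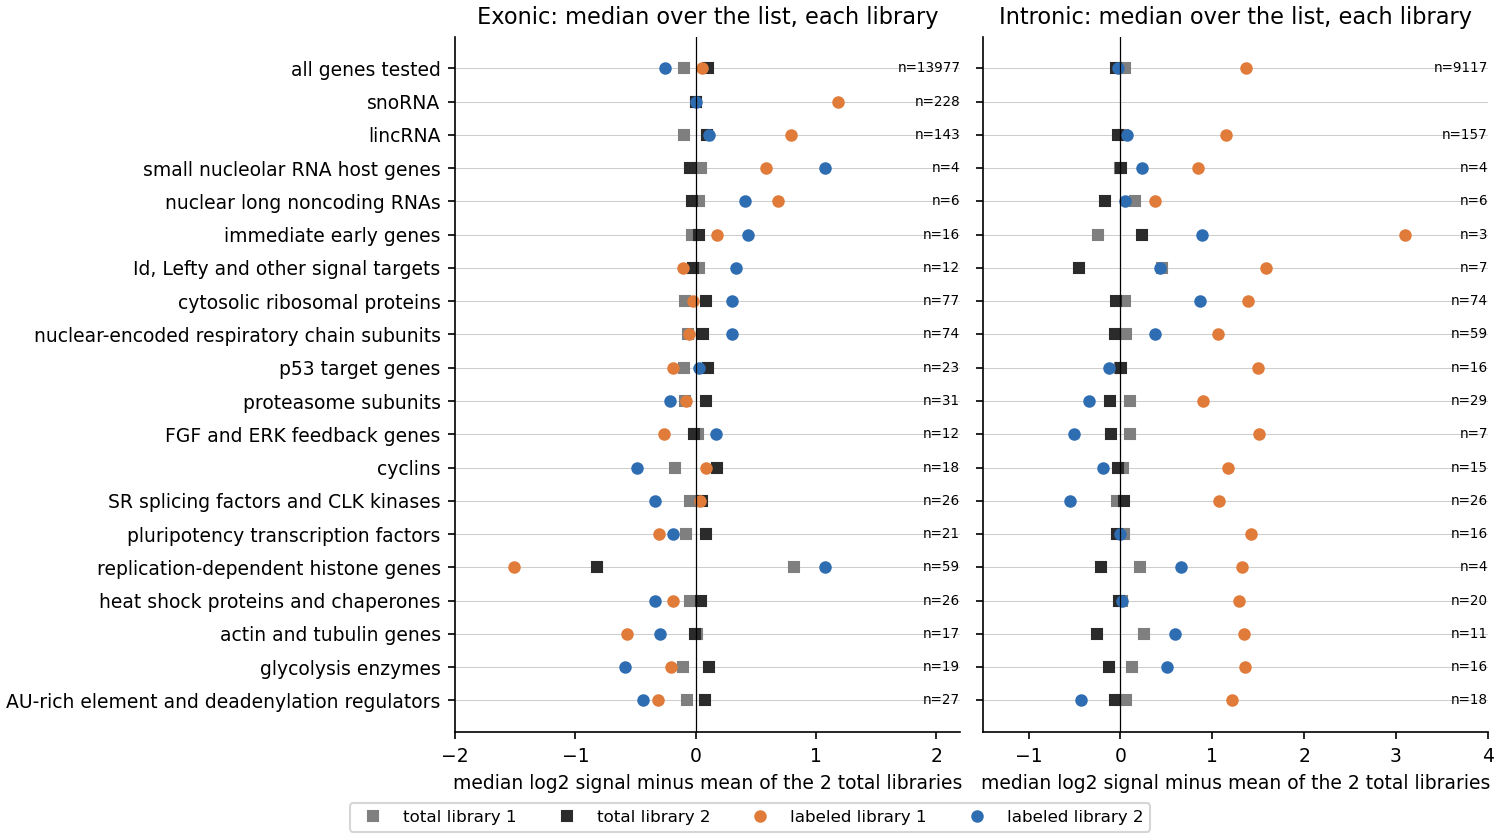
Median log2 signal of each gene list in each library, minus the mean of the 2 total libraries, for exons (left) and introns (right), with n the members tested. The total squares mirror each other around 0 because both are set against their own mean. Histone genes show the widest separation of libraries among exons, and ribosomal protein introns lie right of total RNA in both labeled libraries, at 1.39 and 0.87.

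Intronic signal was higher in labeled library 1 than in both total libraries for nearly all genes, but not in labeled library 2. Both labeled libraries lay above both total libraries for 3527 of 9117 genes (38.7%) and below for 68 (0.746%). The median gene differed by 0.65, by 1.37 in labeled library 1 and by -0.03 in labeled library 2. Labeled library 1 lay above both total libraries for 95.4% of the genes and below for 1.5%, whereas labeled library 2 lay above for 40.5% and below for 43.8%. With all libraries at equal medians, 13.7% lay above and 17.5% below. limma called 0 genes (0.0%), with a smallest adjusted p of 0.508 and 879 at an unadjusted p under 0.05, 861 of them higher. The 4 libraries fitted alone gave 7 calls and the fit with replicate blocks gave 5. The median intronic share per gene, which weights genes equally, was 18.9% and 15.8% in total and 34.2% and 20.2% in labeled RNA (exact permutation p = 0.33, two-sided, the smallest possible).

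**Figure D4:**
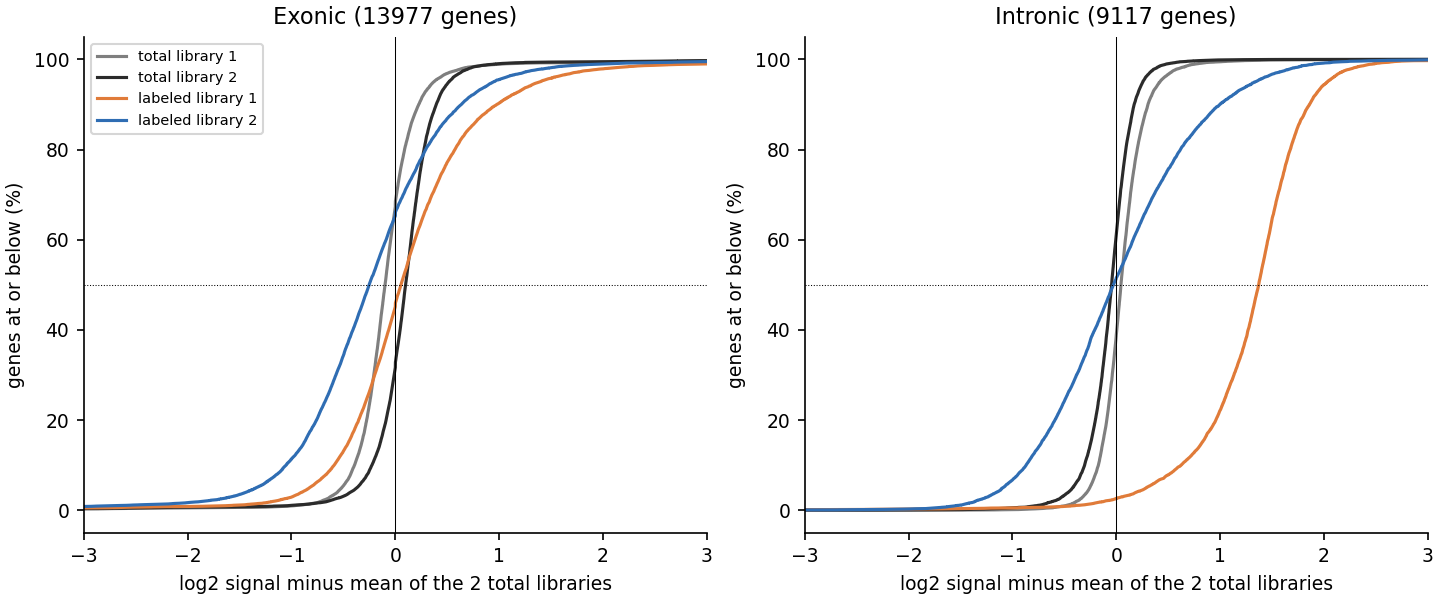
Cumulative percent of genes (y axis) by log2 signal minus the mean of the 2 total libraries (x axis), for exons (left) and introns (right), with 1 line per library. The total lines mirror each other by construction. In introns the line of labeled library 1 is shifted right with a median of 1.37, while that of labeled library 2 has a median of -0.03 and is wider than the total lines.

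Among lists with more than 10 intronic members tested, ribosomal protein genes had the largest share with both labeled libraries above total RNA. Of 74 tested, 67 lay above both total libraries and 0 below, against 38.7% of all genes, and 21 and 0 at equal medians, against 13.7%. The median was 1.15, with 1.39 in labeled library 1 and 0.87 in labeled library 2, and it was 1.07 after the GC trend of each library was removed. 41 of the 74 were higher at an unadjusted limma p under 0.05 and 0 passed adjustment. Rps20 had 63.8 and 79.9 in total and 363.1 and 222.8 in labeled RNA (1.98, SE 0.52, limma adjusted p = 0.508). The intronic signal of Rps27a was 488.5 and 375.9 in total and 2182 and 1155 in labeled RNA (1.89, SE 0.52, limma adjusted p = 0.508), a wider difference than its exonic 0.82. Rpl28, lowest of the list in exons, had an intronic 88.0 and 75.9 in total and 292.4 and 203.3 in labeled RNA (1.57, SE 0.56, limma adjusted p = 0.508). The 7 that overlapped were Rpl4, Rpl7, Rpl10, Rpl15, Rps4x, Rps12 and Rps29.

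Glycolysis genes had a median below 0 in exons and above 0 in introns. Of 16 with an intronic test, 10 lay above (38.7% of all genes did) and 0 below, with a median of 0.95, or 4 and 2 at equal medians. Gapdh introns had 265.8 and 250.8 in total and 1257 and 759.3 in labeled RNA (1.92, SE 0.46, limma adjusted p = 0.508), so its intronic and exonic signals differed in opposite directions. Eno1, enolase, had an intronic 383.8 and 228.1 in total and 974.7 and 743.3 in labeled RNA (1.52, SE 0.50, limma adjusted p = 0.508) and an exonic 16644 and 21608 in total and 14762 and 8756 in labeled RNA (chosen after its values were seen). Actb introns overlapped between the groups with 422.9 and 261.4 in total and 204.6 and 360.0 in labeled RNA. Of 59 respiratory chain genes, 32 lay above and 0 below (38.7% of all genes lay above), with a median of 0.71, but at equal medians 6 lay above and 9 below. The 3 immediate early genes with an intronic test, Dusp1, Zfp36l1 and Sertad1, all lay above. Dusp1 introns, though, had 21.6 and 35.1 in total, 280.3 in labeled library 1 and 35.2 in labeled library 2, which overlapped at equal medians. SR splicing factors and CLK kinases had 2 of 26 above and 2 below, with a median of 0.31, but 0 above and 17 below at equal medians. Their median was 1.07 in labeled library 1, where 23 of the 26 lay above both total libraries (95.4% of all genes did), and -0.54 in labeled library 2. Pluripotency factors had 6 of 16 above and 0 below, and snoRNA hosts 2 of 4. Gas5 introns overlapped, with 11879 and 20593 in total, 44444 in labeled library 1 and 17820.4 in labeled library 2.

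Among genes with non-overlapping groups and an intronic mean of at least 200, the largest differences upward were those of Trim28, 2410019O14Rik, Brd2 and Gapdh. 2410019O14Rik, a noncoding transcript, had 103.0 and 102.1 in total and 393.3 and 435.1 in labeled RNA (2.00, SE 0.48, limma adjusted p = 0.508), with the labeled libraries close together. Trim28, a corepressor that silences retroelements, had 89.8 and 50.8 in total but 848.7 and 109.0 in labeled RNA, and Brd2, a bromodomain protein, had 124.6 and 102.3 in total but 1265 and 154.5 in labeled RNA, so both rested mainly on labeled library 1. Downward, within the same limits, they were Tmem56, Gm17111, Mphosph8 and P4hb. P4hb, a protein disulfide isomerase, had 2034 and 1850 in total and 1200 and 468.1 in labeled RNA (-1.37, SE 0.42, limma adjusted p = 0.508). Gm17111 (306.9 and 323.8 in total, 57.9 and 139.6 in labeled RNA) lies within Dync1h1 on the opposite strand, and since the sources used here do not state that strand was kept, its reads cannot be separated from those of that gene. Mphosph8, which binds methylated histone H3, had 2353 and 782.5 in total and 533.1 and 492.8 in labeled RNA, with total library 1 far above the rest.

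The ratio of intronic to exonic signal within a gene does not depend on the share of the library that the gene takes. Of 7731 genes tested, both labeled libraries lay above both total libraries for 3440 (44.5%) and below for 84 (1.09%). At equal medians these shares were 15.2% and 16.9%. The median difference was 0.71, with 1.24 in labeled library 1 and 0.20 in labeled library 2. limma called 0 genes (0.0%), with a smallest adjusted p of 0.559 and 651 at an unadjusted p under 0.05, 643 of them higher, while the 4 libraries alone gave 6 calls and replicate blocks 12.

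Among lists with more than 10 members tested for the ratio, actin, tubulin and glycolysis genes had the highest medians. Over all genes with a ratio, 44.5% lay above and 1.09% below, or 15.2% and 16.9% at equal medians. Of 16 glycolysis genes, 12 lay above and 0 below, with a median of 1.53, and at equal medians 6 lay above and 1 below. Gapdh introns amounted to 0.241% and 0.224% of exonic signal in total and 1.63% and 1.02% in labeled RNA (2.47, SE 0.56, limma adjusted p = 0.559). Of 11 actin and tubulin genes, 8 lay above and 0 below, with a median of 1.61, and at equal medians 6 lay above and 2 below. Tuba1b, an alpha-tubulin chosen after its values were seen, had 0.896% and 0.531% in total and 4.92% and 2.95% in labeled RNA (2.46, SE 0.69, limma adjusted p = 0.559). For both genes each labeled library lay above each total one, with labeled library 1 the higher. Of 74 ribosomal protein genes, 46 lay above and 0 below, with a median of 1.02, and at equal medians 21 lay above and 8 below. lincRNAs differed less, with 25 of 106 above and 11 below and a median of 0.11. At equal medians 2 lincRNAs lay above and 43 below, so their direction turned, and 0 of the 4 snoRNA hosts lay above or below on the deposited scale.

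Single genes were ranked by ratio only where groups did not overlap and the exonic mean was at least 200. Within these limits the largest differences upward were those of Gm8325, Sirt2, Hnrnpa1l2-ps and Gpx1. Gpx1, glutathione peroxidase, had 2.57% and 1.41% in total and 19.1% and 20.1% in labeled RNA (3.37, SE 0.79, limma adjusted p = 0.559). Sirt2, a deacetylase whose locus overlaps Nfkbib, had 5.92% and 0.356% in total and 16.1% and 15.1% in labeled RNA. Gm8325 rested on labeled library 1 alone (0.142% and 0.167% in total, 13.3% and 0.207% in labeled RNA) and Hnrnpa1l2-ps, which has 2 near copies, on labeled library 2 alone (0.0388% and 0.0495% in total, 0.0567% and 3.59% in labeled RNA). Downward, within the same limits, they were Mphosph8, Spcs1, Luc7l and 1110005A03Rik. Luc7l, a U1 snRNP protein, had intronic signal at 805% and 637% of exonic signal in total RNA and 289% and 461% in labeled RNA (-0.97, SE 0.44, limma adjusted p = 0.559). Spcs1 overlaps Glt8d1, and 1110005A03Rik overlaps Srsf2 and Mfsd11, so their introns can hold exons of neighbors.

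**Figure D5:**
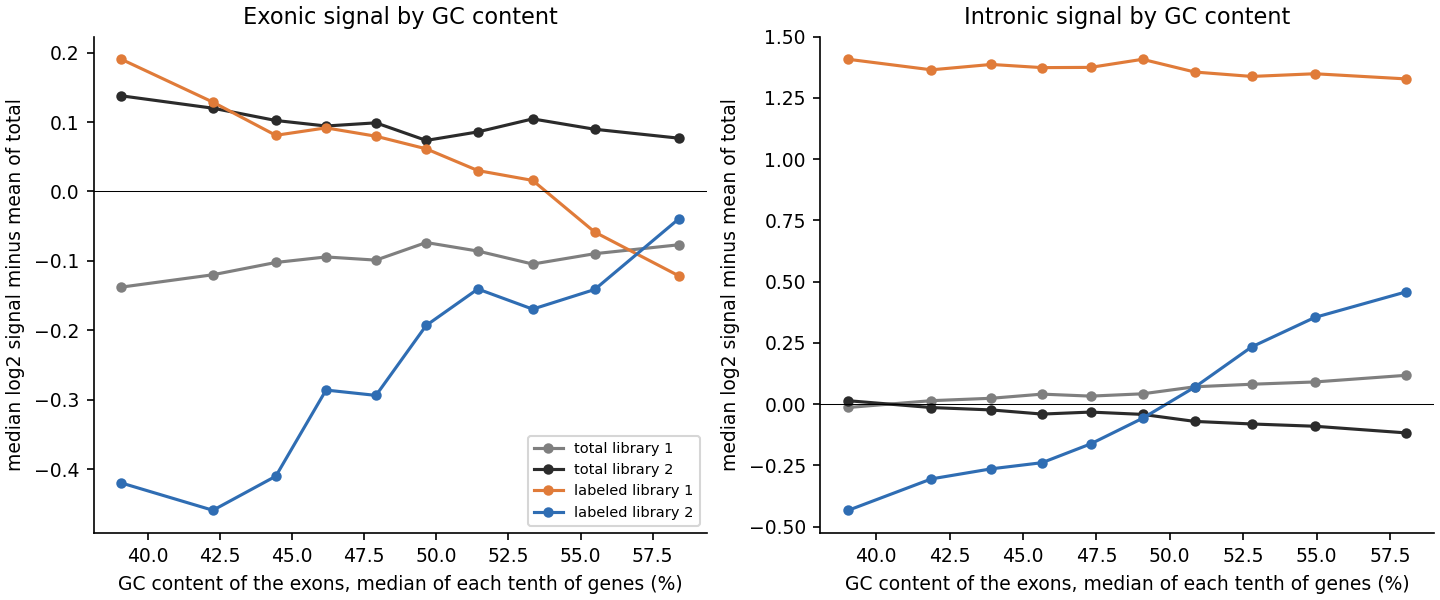
Median log2 signal minus the mean of the 2 total libraries (y axis) in 10 equal groups of genes ordered by the GC content of their exons in percent (x axis), for exons (left) and introns (right), with 1 line per library. The intronic line of labeled library 2 climbs from -0.43 to 0.46 across GC content, while that of labeled library 1 stays between 1.33 and 1.41 at the ends.

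The labeled libraries differed in how signal followed base composition. With genes divided into 10 equal groups by each measure, the introns of the group of genes with the lowest exonic GC content (median 39.1%) had a median of 1.41 in labeled library 1 and -0.43 in labeled library 2, and the group with the highest (58.0%) had 1.33 and 0.46. The share of genes with both labeled libraries above total RNA went with it, from 22.7% to 60.7%. Among exons the medians of labeled library 2 were -0.42 at the lowest and -0.04 at the highest GC content, and those of labeled library 1 were 0.19 and -0.12. Uridine, the base that 4sU replaces, went the other way in labeled library 2. Its exonic median was 0.03 in the group of genes with the least uridine (median 18.7%) and -0.59 in the group with the most (31.0%), against -0.07 and 0.06 in labeled library 1. Exonic length moved with it, as the group of genes with a median of 166 nt had 0.00 and that with 9360 nt had -0.49 in labeled library 2. With the GC trend of each library removed, 12.3% of genes lay above and 21.9% below total RNA in exons. These shares were 11.7% and 21.4% before. In introns the share above was 37.3% in place of 38.7%, and for the ratio 45% in place of 44.5%. The part of uridine content and length in the differences above was not tested.

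The AU-rich nonamer, a 9-letter motif of short-lived mRNAs, was looked for in the 3′ UTRs of protein-coding genes, of which 96.9% had one. It stood in 8.67% of them, in 7.17% of those above and in 8.73% of those below total RNA in both labeled libraries. Genes with the nonamer had a median of -0.10, as had genes without it. The medians with and without it were 0.11 and 0.03 in labeled library 1 and -0.34 and -0.26 in labeled library 2. The 3′ UTRs with it were also longer, with a median of 2192 nt against 1068 nt, and the part of length was not tested. The 3′ UTRs had a median of 913 nt in genes above, 1528 nt in genes below and 1161 nt in all.

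Whether a difference was particular to 60 min was tested as the difference at 60 min minus that at 15 min in exons. limma called 0 of 13977 genes, with a smallest adjusted p of 0.726 and 162 at an unadjusted p under 0.05, 51 with a higher and 111 with a lower difference at 60 min. Gapdh, for example, differed between the times by -0.26, Gas5 by 0.25, Lin28a by -0.30 and Neat1 by 1.07. No gene is therefore called particular to 60 min.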

How the data were processed

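RNA was sequenced as 100-nt single-end reads after pulldown of biotinylated RNA or from total RNA. The authors removed reads mapping to rRNA with STAR 2.5.0, aligned the rest to exonic and intronic sequences and quantified them with RSEM (mm10 in the submitters' processing notes, annotation release of this step not given in the sources used here). The deposited signal is length-normalized and scaled to about 20 times TPM, and the sources do not name this scaling. The study's methods give average read numbers, but the depth of each library cannot be read from the values, so no counting error, count test or limit for values at 0 was computed.

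Transcripts were matched by identifier to GENCODE M1 (mm9), which found 75.1% of the Ensembl transcripts. The others and de novo transcripts were left out of gene sums. Missing values were taken as 0. limma 3.58.1 in R 4.3.3 was run with a mean-variance trend on log2(signal + 1) over 6 groups, with Benjamini-Hochberg adjustment, and was tested on simulated data. Shares were compared with exact permutation tests. Tables were handled in Python 3.11.15 with pandas 2.3.3 and numpy 2.4.6, permutations were run with scipy 1.17.1, and figures were drawn with matplotlib 3.10.9. Copies of small genes were searched with blastn in the mm9 transcripts.

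The named genes were the 8 exonic, 4 intronic and 4 ratio genes with the largest differences each way (none being called, those with non-overlapping groups and a mean of at least 200), the highest and lowest member of each list with up to 2 more in list order, and Pou5f1, Sox2, Nanog, Myc, Malat1, Neat1, Actb and Gapdh. The libraries, the 24 lists and this rule were chosen with earlier results of these data known.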

Additional observations from a re-analysis of the deposited data

Results flagged for a closer look

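Transcripts outside the gene sums also held signal seen in labeled RNA alone. Of 27825 Ensembl transcripts with exonic rows that were not matched to GENCODE M1, 18286 had a value. Among them, 8 had at least 20 in both labeled libraries and were missing in both total libraries, and 3 showed the reverse. In introns of these transcripts the counts were 2 and 2, and among de novo transcripts 0 and 0. Matched transcripts gave 26 and 5. This was a count in 4 libraries with no test.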

How the results depend on the processing

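With 2 libraries a group and no depth for single libraries, the limits are those of the spread between libraries. The exonic count of 0 calls became 6 with the 4 libraries alone, 1 with a pseudocount of 20, 6 with no filter and 2 without the mean-variance trend, and ranged from 0 to 520 with 1 library left out: 520 without labeled library 1, 4 without labeled library 2, 4 without total library 1 and 0 without total library 2. The intronic count of 0 became 7 with the 4 libraries alone, 5 with the replicate block and 13 with the block and the GC trend removed, and ranged from 0 to 2 over left-out libraries. For the ratio it became 6 with the 4 libraries alone, 12 with the replicate block, 12 with block and GC trend removed, 2 for single transcripts and 10 with crossed replicate numbers, and ranged from 0 to 1. The difference between 60 and 15 min gave 4 calls with a pseudocount of 20, 8 with no filter and 5 without the mean-variance trend (the last pair chosen after seeing the data), and 0 to 11 over left-out libraries, with 11 without labeled library 1 and 2 without labeled library 2. The cause of these changes was not tested.

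Equal medians moved the share of introns above total RNA to 13.7% and below to 17.5%, and of ratios to 15.2% and 16.9%. Introns below were 1.13% with a filter of 100 and 1.23% for single transcripts, and ratios below were 3.38% with no filter and 0.726% with a filter of 100. The difference in intronic share was 9.84 points as a median over genes and ranged from 0.012 to 6.94 over left-out libraries.

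Same-numbered labeled and total libraries did not deviate together at 60 min (correlation of deviations -0.188 in exons, -0.337 in introns and -0.317 in ratios), so the numbers were not taken to pair the cultures. The replicate block gave 0 exonic calls and 858 genes at an unadjusted p under 0.05. Pairing the numbers crosswise was chosen after seeing the data. Alternative values were computed only for the 69 results of named genes whose groups did not overlap. Of these 1022 values, 995 kept their direction and their side of the threshold, and 0 reversed. The others, some of them from a single labeled library, passed the threshold. Where groups do not overlap, leaving out a library cannot reverse the direction, so the 0 is no test of these genes. Genes that overlapped, such as Nanog, Sox2, Myc and Malat1, were not included.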

Other observations

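Txnip, a glucose-responsive inhibitor of thioredoxin that belonged to no list, had an exonic 2799.9 and 5942 in total and 9939 and 10363 in labeled RNA, so both labeled libraries lay above both total libraries and close together (1.31, SE 0.38, limma adjusted p = 0.273). It was chosen after its values were seen. De novo transcripts held 7.54% and 4.01% of the signal in total libraries 1 and 2 and 4.29% and 4.61% in labeled libraries 1 and 2, so total library 1 stood above the other 3.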
